A study of Mus musculus with 3 samples.

Results

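The Hox genes are 39 of the 27998 genes listed in these single-cell count tables of mouse dorsal skin. They were taken as every gene whose symbol is Hox, a cluster letter from a to d and a number, with no use of measured values. All skin was from C57BL/6 mice, with no treatment or further genotype named. Neonatal mice, mice of 3 weeks and mice of 2 months each gave 1 library. Minced biopsies were taken apart with DNase and collagenase D, and a droplet kit that captures the 3' end of each transcript was used. The sources used here do not give the number of animals in a library or the level of the back that was sampled, so age, animal and biopsy position cannot be told apart. After filtering, 7911, 8900 and 9332 cells remained in the neonatal, 3 week and 2 month libraries, with 81282170, 109336985 and 96290401 unique molecular identifiers (UMIs, each standing for 1 captured transcript). Hox transcripts made up 51853, 41569 and 43095 of those UMIs, or 638, 380 and 448 CPM (UMIs per 1000000 UMIs). Wherever 3 values follow a gene name below, they stand in the order neonatal, 3 weeks, 2 months.

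Hox genes encode homeodomain transcription factors that give cells an address along the head to tail axis of the embryo. They lie in 4 clusters, and within a cluster the genes at the anterior end are switched on earlier and nearer the head than the genes at the posterior end, whose numbers are higher. Genes with the same number in different clusters are paralogues that descend from 1 ancestral gene, and many adult cells, dermal fibroblasts among them, keep part of the embryonic pattern. PBX and MEIS proteins bind DNA together with Hox proteins, and Polycomb and trithorax complexes hold the clusters silent or active.

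In the mm10 annotation the Hoxa cluster held 11 genes on chromosome 6 from 52155590 to 52260880, on the minus strand. The Hoxb cluster held 10 genes on chromosome 11 from 96194316 to 96368256. The Hoxc cluster held 9 genes on chromosome 15 from 102921103 to 103036852. The Hoxd cluster held 9 genes on chromosome 2 from 74668310 to 74765142, and clusters B, C and D lie on the plus strand. Hoxd3 and Hoxd4 share 62.3% and 52.3% of their exonic bases with another gene on the same strand, so their counts are uncertain, and 4 more genes share between 5.37% and 15.0%.

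Upstream sequence is shown for 4 genes whose levels set cell classes apart in the results that follow: Hoxd8 and Hoxd10, which were high in endothelial cells, Hoxd11, the next gene beyond Hoxd10, which was near 0 there, and Hoxb8, which was higher in keratinocytes and endothelial cells than in fibroblasts. Each run is the 250 bases before a RefSeq start of the gene on build GRCm38.p6, plus strand, 5' to 3', in lower case. Capitals mark matches to either of a pair of motifs searched on both strands, TGATTNAT (a PBX and HOX site) and TTTATNG (a CDX or posterior HOX site). RefSeq promoters were found for 22 of the 39 genes, with 24 start sites. TGATTNAT was in 2 of the 24, and in 2.83% of all 32841 promoter windows of the same length. TTTATNG was in 2 of the 24, and in 9.81% of all windows. RefSeq gives Hoxd11 a pair of starts, and the window printed is that of the one inside the annotated gene (74679557 to 74687016), since the window of the other, 74679308 to 74679557, held no match and overlapped an annotated exon. The printed Hoxd11 window held 1 match to TGATTNAT, on the minus strand, and Hoxb8 held 3 matches to TTTATNG. No match was found in the windows of Hoxd8 and Hoxd10, which says only that these letters were not there.
Hoxd8, chr2:74704365-74704614: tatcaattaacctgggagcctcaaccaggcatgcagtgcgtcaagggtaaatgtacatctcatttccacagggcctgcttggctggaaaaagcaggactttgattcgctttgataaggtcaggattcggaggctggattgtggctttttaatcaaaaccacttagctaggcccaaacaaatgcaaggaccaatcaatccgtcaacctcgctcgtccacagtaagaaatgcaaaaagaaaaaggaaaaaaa
Hoxd10, chr2:74691641-74691890: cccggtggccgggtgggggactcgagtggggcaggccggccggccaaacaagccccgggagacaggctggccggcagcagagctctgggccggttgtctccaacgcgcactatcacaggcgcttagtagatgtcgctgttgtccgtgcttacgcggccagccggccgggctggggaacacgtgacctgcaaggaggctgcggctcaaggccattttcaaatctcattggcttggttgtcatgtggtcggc
Hoxd11, chr2:74682073-74682322: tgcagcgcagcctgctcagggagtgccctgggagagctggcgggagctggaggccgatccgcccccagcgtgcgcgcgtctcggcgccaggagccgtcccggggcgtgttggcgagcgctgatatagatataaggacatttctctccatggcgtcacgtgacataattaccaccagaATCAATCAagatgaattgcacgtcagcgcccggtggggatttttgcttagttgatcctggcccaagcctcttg
Hoxb8, chr11:96281655-96281904: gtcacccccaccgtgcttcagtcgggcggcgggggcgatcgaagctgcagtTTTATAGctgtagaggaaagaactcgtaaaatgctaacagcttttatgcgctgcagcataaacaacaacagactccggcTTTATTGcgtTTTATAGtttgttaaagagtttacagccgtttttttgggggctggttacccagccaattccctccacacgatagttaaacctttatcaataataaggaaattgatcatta

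Of the 39 genes, 37 had a UMI in a kept cell. Hoxc12 and Hoxd12 had none. Another 5 had between 1 and 50 UMIs over all cells: Hoxa13 and Hoxd13 with 1 each, Hoxb13 with 2, Hoxd11 with 20 and Hoxb1 with 45. Among these, the genes numbered 12 and 13 are the most posterior. Of all Hox genes with these numbers, Hoxc13 alone had a clear signal, described below with the keratinocytes. Levels are given in CPM, over all UMIs of the same cells. Since each transcript is counted once at its 3' end, CPM is not divided by gene length, and differences between genes can also reflect how well each 3' end was captured.

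Cells were sorted into classes by marker genes that hold no Hox gene. The gates gave 6266, 5661 and 4905 fibroblasts and 257, 1251 and 1511 keratinocytes. They gave 179, 278 and 222 mural cells (the contractile cells around vessels and follicles), 104, 232 and 429 Schwann cells, 242, 593 and 1069 leukocytes, and 78, 87 and 51 muscle progenitors. Smaller classes were endothelial cells (40, 99 and 44), melanocytes (13, 42 and 102) and sebaceous cells (3, 20 and 44). Adipocytes (44, 7 and 5), hair shaft and inner root sheath cells (28, 3 and 4) and erythroid cells (35, 83 and 30) made up the rest. The erythroid gate held 417, 247 and 194 CPM of Hox RNA, led by Hoxc8 in the neonatal and 3 week libraries and by Hoxc6 at 2 months. The fibroblast marker Dcn stood at 1206, 4895 and 6404 CPM there, and the part of mixed cells was not tested. The leading genes of each class by fold held its own markers. The endothelial gate was led by genes of lymphatic vessels, Ccl21a, Mmrn1, Nts and Flt4, beside the general endothelial genes Cldn5, Pecam1 and Cdh5. Cells with no clear lead, 622, 544 and 916 of them, were left out, and no doublet caller was run. The share of cells close to the cut ran from 3.83% of endothelial cells to 27.3% of muscle progenitors. Pairs of libraries shared 31, 26 and 23 cell barcodes.

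Leukocytes served as the comparison for free RNA, which is captured with every cell, as cells that arise outside the skin. Their summed Hox level was 44.4, 41.5 and 49.4 CPM. Fibroblast markers summed to 2991, 2309 and 1625 CPM in the same leukocytes, against 51208, 164801 and 165145 CPM in fibroblasts, and none of the 9 markers was at 0. Keratinocyte markers summed to 96.6, 2537 and 1340 CPM in leukocytes, and to 106, 1449 and 849 CPM without the 10 deepest cells, where the Hox level was 35.0, 27.9 and 41.8 CPM. The leading Hox gene of the leukocytes was Hoxc8 in the neonatal library (8.19 CPM), Hoxb2 at 3 weeks (6.19 CPM) and Hoxb4 at 2 months (9.06 CPM). The part of free RNA or of mixed cells in the leukocyte Hox level was not tested.

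**Figure D1:**
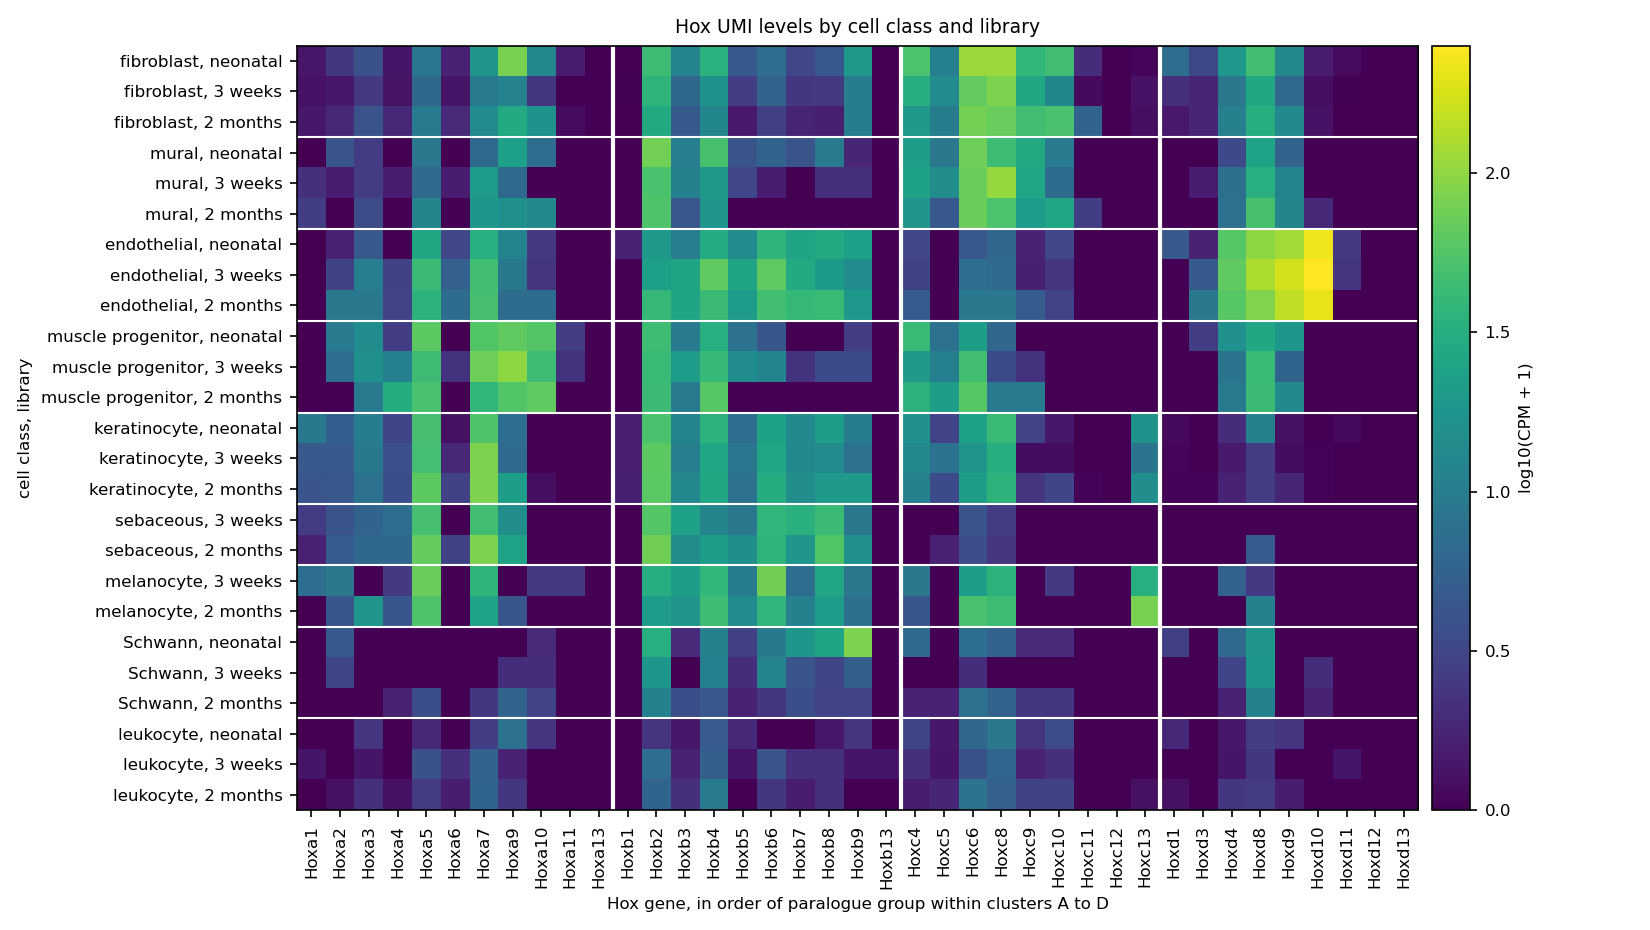
Hox levels by cell class and library, as log10(CPM + 1), with the 39 genes in order of paralogue group within clusters A to D. Fibroblasts and mural cells are bright over Hoxc6 to Hoxc10, endothelial cells over Hoxd4 to Hoxd10, and leukocytes are dark over all clusters.

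Dermal fibroblasts carried a central, HoxC-led pattern. Their summed Hox level was 696, 379 and 458 CPM, and the HoxC cluster supplied 52.2%, 61.3% and 59.9% of the Hox UMIs. HoxA gave 17.9%, 7.71% and 15.9%, HoxB 17.5%, 20.02% and 12.3%, and HoxD 12.4%, 10.9% and 11.9%. Hoxc6 and Hoxc8, which act in the thoracic region, led in every library: Hoxc6 at 109, 65.4 and 77.6 CPM and Hoxc8 at 108, 84.7 and 68.9 CPM. Hoxc6 (ENSMUSG00000001661) lies at chr15:102998257-103011881 and Hoxc8 (ENSMUSG00000001657) at chr15:102990607-102994111. In the neonatal library their counting intervals overlapped, at 3 weeks Hoxc8 was the higher and at 2 months Hoxc6 was.

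Behind this pair the order changed with the library. Hoxa9 (ENSMUSG00000038227, chr6:52223100-52231089) followed in the neonatal fibroblasts at 81.5 CPM but stood at 10.6 and 28.5 CPM in the later libraries. Hoxc10, known for its role at the lumbar and hindlimb level, stood at 45.3, 11.5 and 50.2 CPM, and Hoxc9 at 38.2, 26.3 and 44.8 CPM. Hoxc4, a more anterior gene, was lower in each later library, at 51.1, 30.6 and 18.6 CPM. Hoxd8 was at 46.2, 25.7 and 30.2 CPM, Hoxb2, an anterior gene of the HoxB cluster, at 43.4, 35.2 and 27.9 CPM, and Hoxb4 at 33.2, 16.2 and 11.7 CPM. In all, 16 Hox genes reached 10 CPM in fibroblasts of at least 1 library, 9 of them in all 3, and 23 stayed under 10 CPM in every library, the highest of them Hoxa5 at 7.73, 5.47 and 8.73 CPM. The other 7 of the 16 were Hoxb9 (18.8, 9.42 and 9.25 CPM), Hoxd4 (18.0, 7.94 and 10.1), Hoxa7 (16.9, 8.78 and 13.4), Hoxd9 (12.5, 5.62 and 12.8), Hoxa10 (11.96, 1.40 and 15.7), Hoxb3 (10.9, 5.50 and 3.74) and Hoxc5 (9.75, 13.3 and 9.07).

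Each cluster had a posterior edge in fibroblasts. Taking the last gene at 5 CPM or more in all 3 libraries, the edges were Hoxa9, Hoxb9, Hoxc10 and Hoxd9. Beyond them Hoxa10 reached 11.96 and 15.7 CPM in the neonatal and 2 month libraries but 1.40 CPM at 3 weeks, and Hoxc11 reached 4.75 CPM at 2 months. Hoxd10 did not pass 0.572 CPM, and Hoxb13 was at 0. By this measure the pattern ended at group 9 in clusters A, B and D and at group 10 in cluster C.

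**Figure D2:**
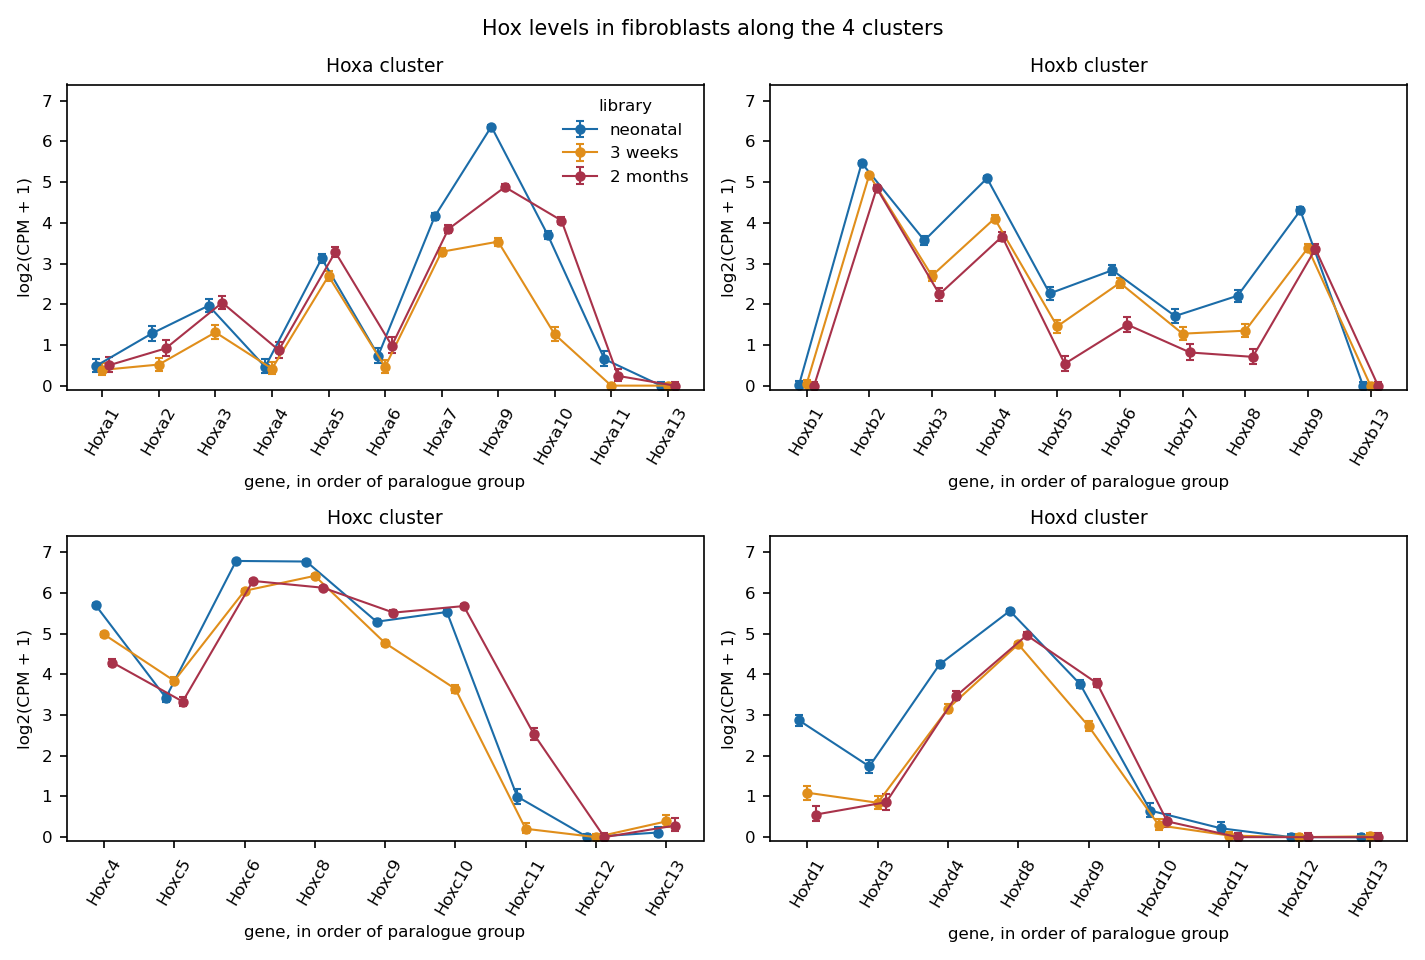
Hox levels in fibroblasts along the 4 clusters, as log2(CPM + 1), with 1 line per library and bars for exact Poisson 95% intervals. The 3 lines share their peaks, at Hoxc6 and Hoxc8, Hoxd8 and Hoxb2, and drop to near 0 past Hoxa10, Hoxb9, Hoxc11 and Hoxd9, while Hoxa9, Hoxa10 and Hoxc10 lie lowest at 3 weeks.

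Whether the fibroblast pattern is shared by other skin cells was asked by comparing summed counts of each class within each library. The test was edgeR's quasi-likelihood test with the library as a block over n = 3 libraries, or 2 where so stated, and p-values were adjusted by Benjamini-Hochberg over all genes. Because the libraries differ in age, a call means a class difference large against the spread of such differences over the ages. That spread was estimated from all classes of a fit together, after the block took out what the classes of a library share. All of these comparisons use the same fibroblast profiles, so they are not independent of one another. In each, a positive log2 value means higher in fibroblasts.

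Keratinocytes, the epithelial cells of epidermis and follicle, had a summed level of 411, 396 and 463 CPM, below the fibroblast value in the neonatal library and near it later, and drew it mainly from clusters A and B. HoxA and HoxB gave 32.3% and 41.0% of neonatal, 39.8% and 40.7% of 3 week and 40.3% and 40.4% of 2 month Hox UMIs, and HoxD gave 2.90%, 0.640% and 0.707%. Of 23 Hox genes tested, 11 were higher in fibroblasts and 8 lower, where 42.2% of all 12366 genes tested were called, 24.1% higher and 18% lower. The median log2 difference was 0.10 over the Hox genes and 0.01 over all genes. Without the 3 week library 12 Hox genes were called in place of 19.

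The split followed the clusters. Of the HoxC genes tested, 6 of 7 were higher in fibroblasts (Hoxc4, Hoxc5, Hoxc6, Hoxc8, Hoxc9 and Hoxc10), as were all 3 HoxD genes tested. Hoxc10 stood at 0.430, 0.199 and 2.20 CPM in keratinocytes, far under each fibroblast value, a log2 difference of 5.57 (SE 0.47, edgeR adjusted p = 1.8e-06). For Hoxc9 the log2 difference was 5.42 (SE 0.57) and for Hoxd9 4.73 (SE 0.63), while the nearer genes Hoxc8 and Hoxc4 differed by 1.51 and 1.47. No HoxB gene was higher in fibroblasts, and the 4 adjacent genes Hoxb5 to Hoxb8 were lower, by log2 values from -2.14 to -3.39. Hoxb8 was at 21.4, 13.5 and 19.1 CPM in keratinocytes against 3.63, 1.55 and 0.633 CPM in fibroblasts. Hoxb6 was at 22.8, 24.7 and 29.5 CPM in keratinocytes, Hoxb7 at 12.6, 12.2 and 14.5 CPM and Hoxb5 at 6.17, 7.76 and 6.88 CPM.

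HoxA was divided within the cluster. Hoxa7 led all Hox genes of the keratinocytes at 54.2, 85.8 and 84.98 CPM, and Hoxa5 was at 47.9, 47.0 and 61.8 CPM, beside Hoxb2 at 49.9, 61.0 and 59.8 CPM. Hoxa5 and Hoxa7 were lower in fibroblasts by log2 values of -2.64 (SE 0.39) and -2.26 (SE 0.40), and Hoxa3 by -1.53. Hoxa9 and Hoxa10, next toward the posterior end, were higher in fibroblasts by 1.78 (SE 0.66, edgeR adjusted p = 0.040) and 6.55 (SE 0.96). The sign thus turned between Hoxa7 and Hoxa9.

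Hoxc13 (ENSMUSG00000001655, chr15:102921103-102928814), which is needed for hair and nail formation and acts on hair keratin genes, broke the HoxC pattern. It stood at 15.9, 7.36 and 14.2 CPM in keratinocytes and between 0.0817 and 0.307 CPM in fibroblasts, a log2 difference of -5.66 (SE 0.74, edgeR adjusted p = 0.00034). At that fibroblast level Hoxc13 could pass the edgeR filter on low counts through keratinocytes alone, so its call was close to fixed in advance. In the 28 neonatal cells gated as hair shaft and inner root sheath it reached 51.0 CPM, on 26 UMIs in 13 cells. That gate rested on Krt27, Krt28 and Tchh alone. Its hair shaft keratins Krt31, Krt35 and Krt85 were too rare to use or absent, so the cells are not shown to be of the hair shaft. The keratinocytes that did not pass the suprabasal gate, a set whose markers include Krt5, Krt14 and Krt15 but also general epithelial genes and the follicle gene Krt17, held more Hox RNA than suprabasal cells in each library, 586, 441 and 495 CPM against 196, 263 and 329 CPM. Hoxa7 did not follow that order at the later ages, with 57.0, 81.3 and 79.2 CPM in those cells and 50.8, 99.1 and 110 CPM in suprabasal cells. These last values have no test.

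Endothelial cells had the highest summed Hox level of the classes with 20 or more cells in all 3 libraries, 773, 1010 and 920 CPM, and HoxD gave 64.8%, 61.5% and 55.1% of it. Hoxd10 (ENSMUSG00000050368, chr2:74691924-74695105), known for keeping endothelium quiescent, was their leading Hox gene at 224, 255 and 207 CPM, against 0.572, 0.223 and 0.307 CPM in fibroblasts. Hoxd9 followed at 116, 169 and 147 CPM, Hoxd8 at 96.2, 127 and 86.6 CPM, and Hoxd4 at 57.7, 64.3 and 58.4 CPM. Hoxd11, whose upstream window is printed above, did not exceed 1.48 CPM, so the HoxD edge lay right past Hoxd10, 1 gene further than in fibroblasts. HoxC gave 1.82%, 1.58% and 2.84% of the endothelial Hox UMIs.

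Since 1 endothelial profile alone reached 50 cells, a minimum of 20 cells, chosen after the cell numbers were seen, was used for this comparison. Of 26 Hox genes tested, 7 were higher and 10 lower in fibroblasts, where 29.4% of 12792 genes were called, 17.4% higher and 12% lower. Without the 3 week library 10 Hox genes were called in place of 17. All 4 HoxD genes tested were lower in fibroblasts: Hoxd10 by -8.88 (SE 0.48, edgeR adjusted p = 5.4e-09), Hoxd9 by -3.48 (SE 0.45), Hoxd4 by -1.997 and Hoxd8 by -1.25. So were Hoxb5 to Hoxb8, by -3.09 to -4.02, and Hoxa5 and Hoxa7. Among these, Hoxb6 stood at 36.3, 62.4 and 46.3 CPM in endothelial cells, Hoxb7 at 24.4, 28.0 and 38.3 CPM and Hoxa5 at 25.9, 42.0 and 34.2 CPM. Hoxd10 did not pass 0.572 CPM in fibroblasts and was not tested in the fit without endothelial cells. It could pass the edgeR filter on low counts through endothelial cells alone, so its call was close to fixed in advance. Higher in fibroblasts were Hoxa9, at 2.21, and 6 of 7 HoxC genes tested, with Hoxc6 at 4.24 (SE 0.39). Hoxc5 had no UMI in endothelial cells and was at least 12.4-fold higher in fibroblasts, against a floor of 3 counts over the group. The median log2 difference was -0.999 over the Hox genes, or -1.12 with genes without a UMI at that bound, and 0.22 over all genes.

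Keratinocyte markers summed to 11.1, 245 and 1103 CPM in the endothelial gate. With the 10 deepest cells of each library left out, a step added after the data were seen, that sum was 8.88, 76.4 and 85.6 CPM, while the summed Hox level was 837, 1005 and 957 CPM.

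Muscle progenitors, led by the myogenic genes Myog, Cdh15, Myod1 and Myf5, had a HoxA-led pattern. HoxA gave 53.3%, 52.6% and 44.6% of a summed level of 492, 556 and 551 CPM. Hoxa9 was at 63.5, 98.3 and 55.1 CPM, Hoxa7 at 54.9, 73.4 and 38.1 CPM, Hoxa5 at 61.8, 43.5 and 50.8 CPM, and Hoxa10, known for a role in satellite cells of the hindlimb region, at 56.6, 43.5 and 63.5 CPM. The HoxA edge lay at Hoxa10, since Hoxa11 did not pass 1.72 CPM. Hoxc10, by contrast, had no UMI in the 216 cells, and Hoxc8 was at 5.15, 2.49 and 8.47 CPM. Hoxc6 stood between, at 20.6, 46.0 and 59.3 CPM.

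This comparison was added after the cell numbers were seen. It called 8 of 23 Hox genes, 4 higher and 4 lower in fibroblasts, where 24.4% of all genes were called, 16.3% higher and 8.1% lower. Lower in fibroblasts were Hoxa3, Hoxa5, Hoxa7 and Hoxa10, Hoxa10 by -2.86 (SE 0.71, edgeR adjusted p = 0.010). Higher were Hoxc6 at 1.36, Hoxc8 at 4.61 (SE 0.59), Hoxc9, on 3 UMIs in muscle progenitors, with a ratio of 19.3 (counting interval 6.59 to 93.4), and Hoxc10, at least 18.3-fold against a floor of 3 counts over the group. The median over the Hox genes was 0.20, or 0.10 with genes without a UMI at that bound, against 0.28 over all genes. Without the 3 week library 3 Hox genes were called. Fibroblast markers summed to 1610, 2379 and 1678 CPM in this gate.

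**Figure D3:**
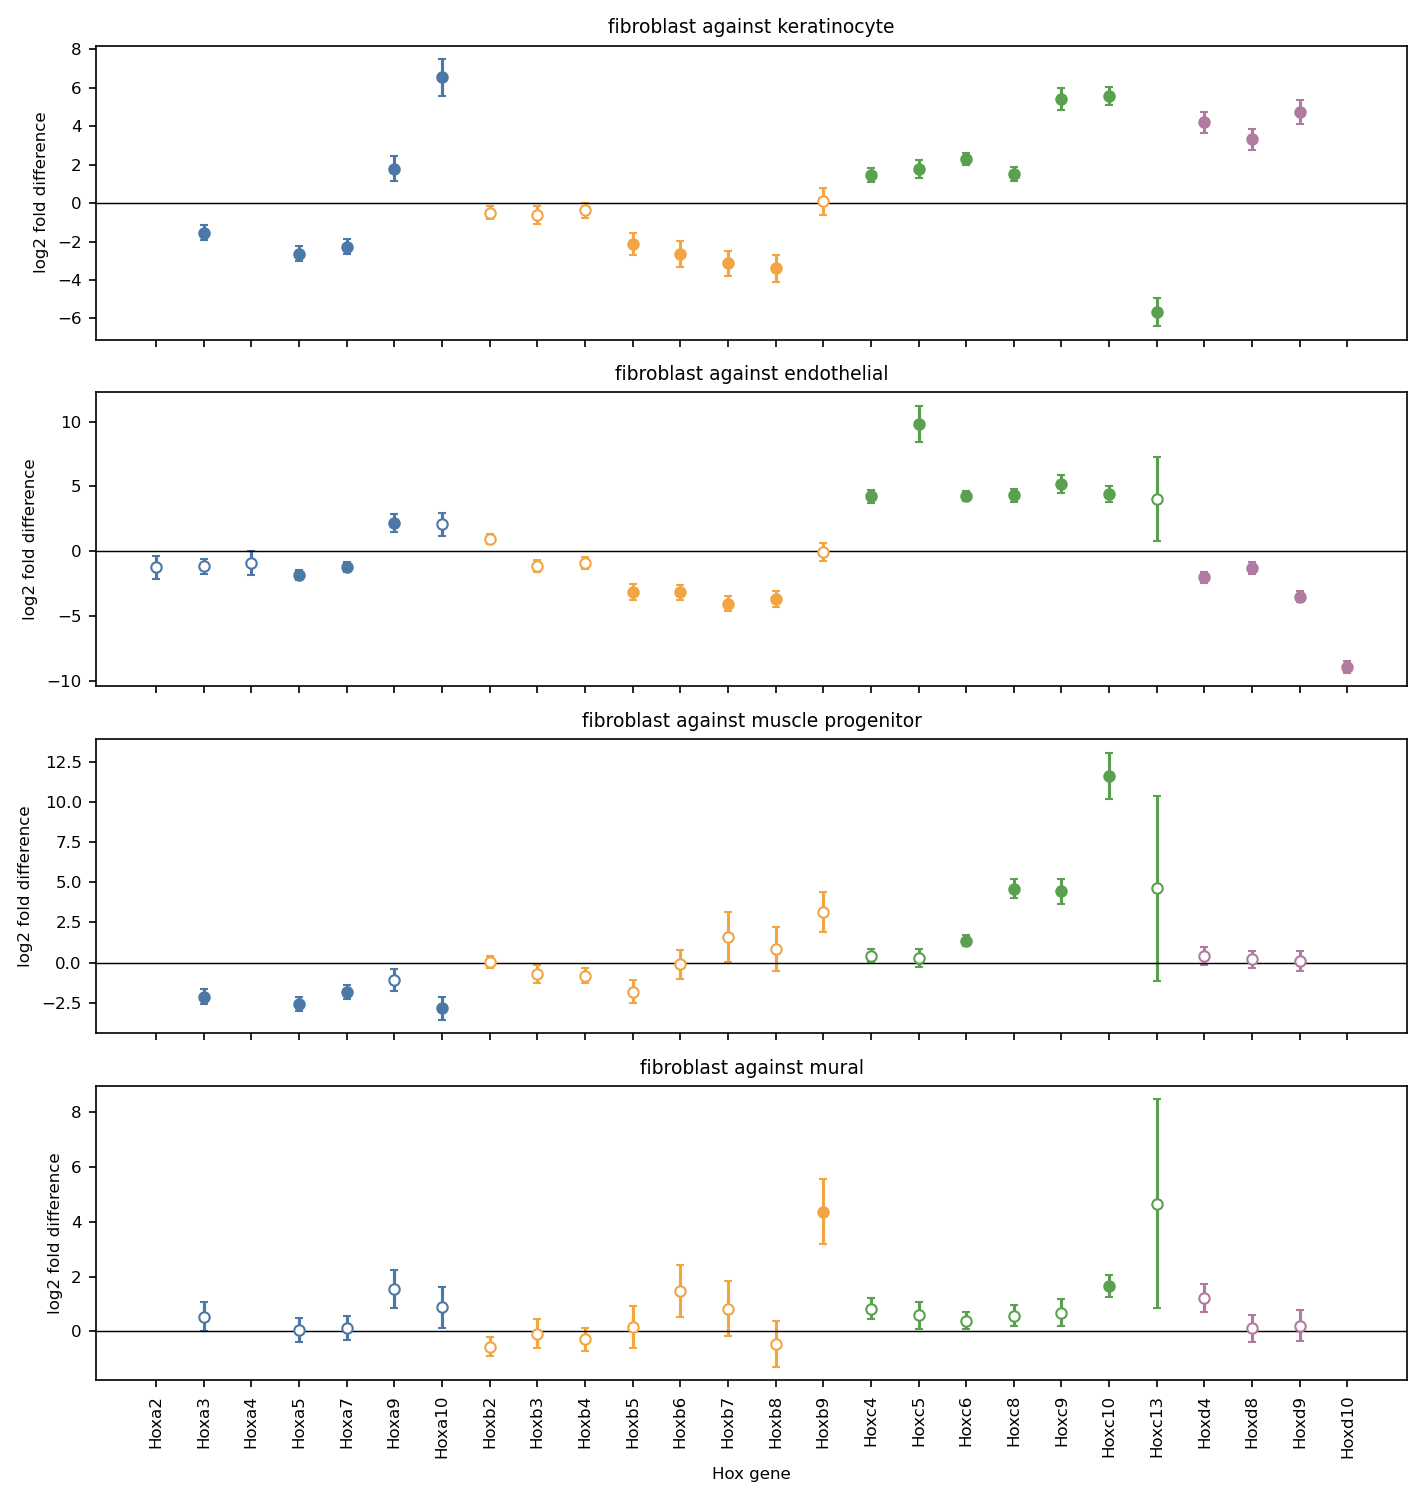
Log2 difference of each tested Hox gene in fibroblasts against keratinocytes, endothelial cells, muscle progenitors and mural cells, with bars for the SE and filled points for edgeR adjusted p under 0.05. Values above 0 are higher in fibroblasts; HoxC points lie above 0 against keratinocytes except Hoxc13, HoxD points change side between keratinocytes and endothelial cells, and 2 points are filled in the mural panel.

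Mural cells had the fewest Hox calls against fibroblasts. Their summed level was 417, 414 and 394 CPM, with 44.1%, 59.1% and 48.2% of it from HoxC. Hoxc6 was at 73.9, 71.6 and 71.5 CPM, Hoxc8 at 44.5, 105 and 51.2 CPM, and Hoxb2 at 77.1, 49.96 and 53.8 CPM. Of 23 Hox genes tested 2 were called, both higher in fibroblasts, where 24.8% of all genes were called, 14.4% higher and 10.4% lower. They were Hoxc10, at 8.74, 6.11 and 24.7 CPM in mural cells (log2 difference 1.66, SE 0.41, edgeR adjusted p = 0.011), and Hoxb9, with 3 UMIs in mural cells. The ratio of Hoxb9 was 17.3, with a counting interval from 5.93 to 84.2. The median log2 difference was 0.57 over the Hox genes, 0.54 with genes without a UMI at their bound, and 0.21 over all genes. The count depended on the library: 4 genes were called without the neonatal library, 0 without the 3 week library and 1 without the 2 month library, and 1 without the library block. A gene that missed the threshold is not shown to be equal in both classes. Fibroblast markers summed to 3233, 2496 and 1119 CPM in mural cells.

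Schwann cells, which derive from the neural crest, held less Hox RNA, 228, 74.7 and 65.3 CPM, and the neonatal cells drew 79.1% of it from HoxB. Hoxb9 stood at 85.1 CPM in the neonatal library, 91 UMIs in 44 of 104 cells, and at 4.33 and 2.08 CPM later, 3 cells in each library. Hoxb8 was at 24.3, 2.17 and 2.08 CPM and Hoxb2 at 31.8, 17.3 and 10.4 CPM. Thinned to 1500 UMIs per cell, 10.6% of neonatal Schwann cells held a Hoxb9 UMI, against 0.439% of neonatal leukocytes, at median depths of 8313 and 8918 UMIs before thinning. At 3 weeks and 2 months 1 of 226 and 0 of 394 thinned Schwann cells did, and a floor of 3 counts for the last allows a share of up to 0.761% of thinned cells with a UMI. With 1 library per age this difference has no replicate check.

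Against Schwann cells, 17 of 23 Hox genes were higher in fibroblasts and none lower, where 27.7% of all genes were called, 16.3% higher and 11.4% lower. Those called were all HoxA and HoxD genes tested, 6 of 7 HoxC genes and Hoxb2, Hoxb3 and Hoxb4. Hoxb5 to Hoxb9 did not pass, with log2 values from 0.84 to -1.89. Without the 3 week library 9 were called, and 11 without the 2 month library. Against leukocytes, 19 of 23 were higher in fibroblasts and none lower, where 39.4% of all genes were called, 21.5% higher and 17.9% lower. No Hox gene passed 9.06 CPM in leukocytes. A gene can pass the edgeR filter on low counts through fibroblasts or other classes alone. The counts against Schwann cells and leukocytes are therefore not a test of the Hox genes as a set. The medians over the Hox genes were 3.10 for Schwann cells (2.54 with genes without a UMI at their bound) and 3.87 for leukocytes, against 0.16 and 0.06 over all genes. Fibroblast markers summed to 7407, 4195 and 2828 CPM in Schwann cells. Their part in the Schwann Hox level was not tested.

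Sebaceous cells, present in numbers at 3 weeks and 2 months alone (20 and 44 cells), drew mainly on HoxA and HoxB, as keratinocytes did, but differed from them in HoxC. HoxA and HoxB gave 35.8% and 62.8% of their Hox UMIs at 3 weeks and 43.2% and 54.8% at 2 months, and HoxC 1.40% and 1.04%. No HoxC gene passed 3.22 CPM in sebaceous cells, while Hoxc8 stood at 30.4 and 34.6 CPM in keratinocytes at 3 weeks and 2 months. Hoxa7 was at 45.1 and 85.5 CPM, Hoxb2 at 56.3 and 74.2 CPM, Hoxa5 at 48.3 and 67.5 CPM, and Hoxb8 at 41.8 and 54.8 CPM. In this comparison, added after the cell numbers were seen and with 2 libraries, 10 of 26 Hox genes were higher and 7 lower in fibroblasts, where 43.7% of all genes were called, 24.7% higher and 19% lower. Hoxc4, Hoxc9 and Hoxc10 had no UMI in sebaceous cells and were at least 17.9-fold, 24.2-fold and 20.02-fold higher in fibroblasts. Lower in fibroblasts were Hoxa4, Hoxa5, Hoxa7 and Hoxb5 to Hoxb8, by -2.04 to -5.12. The median was 0.37 over the Hox genes, -0.55 with genes without a UMI at their bound, and 0.27 over all genes. Without the 2 month library, which leaves 1 sebaceous sample assumed to vary like the other classes, 11 Hox genes were called in place of 17.

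The melanocyte gate showed Hox UMIs in few cells. Its summed level was 438 and 460 CPM at 3 weeks and 2 months, but 17 of 42 and 9 of 102 cells held a Hox UMI. Without the 10 deepest cells the level was 304 CPM at 3 weeks and 12.4 CPM at 2 months, with 2 Hox UMIs left in 92 cells. Keratinocyte markers in the gate moved with it, from 6473 to 5442 CPM at 3 weeks and from 4382 to 205 CPM at 2 months. Hoxc13, at 31.5 and 80.7 CPM over the whole gate, had no UMI left at 2 months. Hoxa5 stood at 69.4 and 53.8 CPM over the whole gate, and Hoxb6 led at 3 weeks with 74.1 CPM. The 10 deepest cells held 78.8% and 98.5% of the Hox UMIs of the gate. Against fibroblasts 14 of 26 Hox genes were called, 9 higher and 5 lower in fibroblasts, where 18.9% of all genes were called, 11.1% higher and 7.76% lower. This comparison had 2 melanocyte libraries. Leaving out either leaves 1 sample, assumed to vary like the other classes, and 1 gene was then called without the 3 week library and 6 without the 2 month library. The median was 0.73 over the Hox genes, -0.02 with genes without a UMI at their bound, and 0.14 over all genes.

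**Figure D4:**
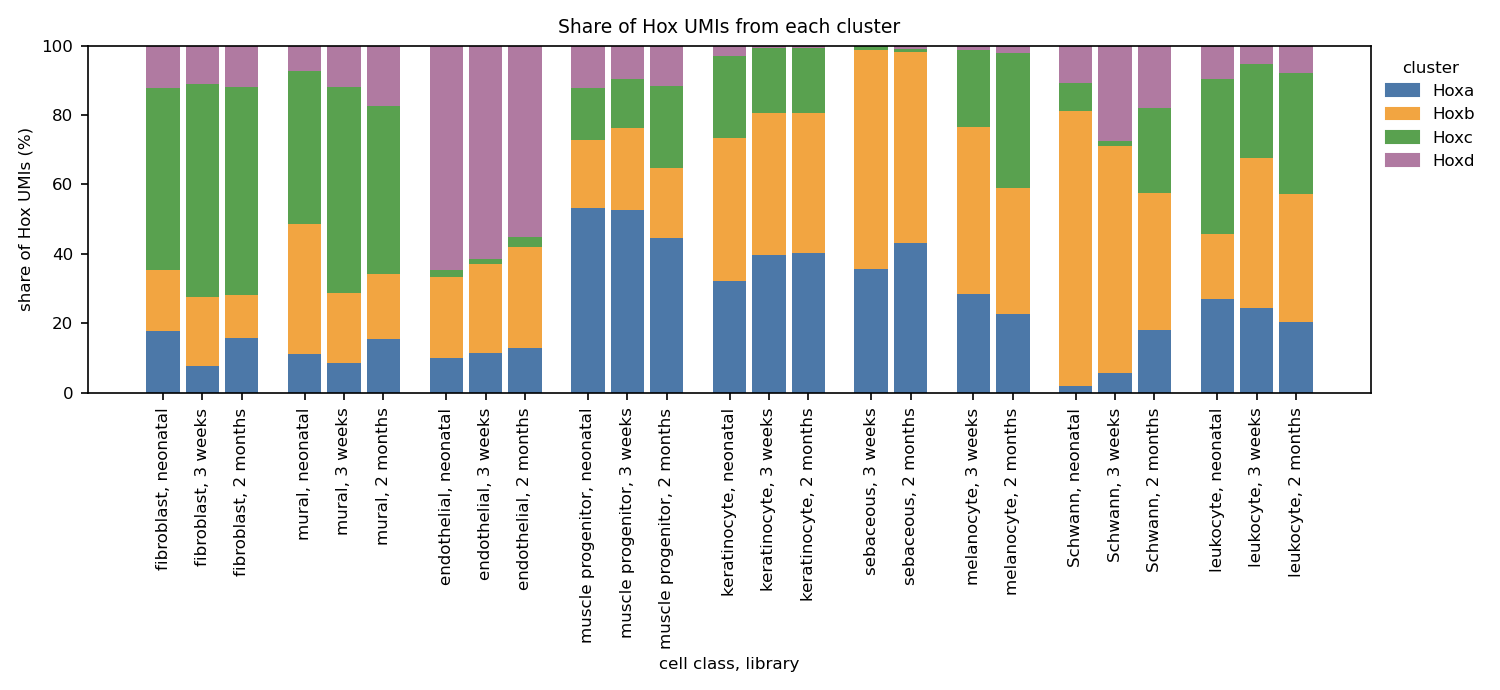
Share of Hox UMIs from each of the 4 clusters, in percent, for each class and library with 20 or more cells. HoxC holds 52.2% to 61.3% in fibroblasts, HoxD 55.1% to 64.8% in endothelial cells and HoxA 44.6% to 53.3% in muscle progenitors, while HoxA and HoxB fill most of the bar in keratinocytes and sebaceous cells.

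Paralogue groups crossed these cluster differences. Group 8 gave 22.7%, 29.6% and 21.8% of the Hox UMIs of fibroblasts, nearly all from Hoxc8 and Hoxd8, and 16.8%, 15.0% and 14.7% of those of endothelial cells, mostly from Hoxd8. Group 7 was the largest in keratinocytes at the later ages, with 24.7% and 21.5%, and gave 2.75%, 2.69% and 3.09% in fibroblasts. Group 10 gave 29.5%, 25.5% and 23.4% in endothelial cells through Hoxd10, 11.5%, 7.83% and 11.5% in muscle progenitors through Hoxa10, and 8.31%, 3.46% and 14.5% in fibroblasts through Hoxc10 and Hoxa10. In these 3 classes group 10 UMIs came mainly from different clusters.

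As a description, likeness between Hox genes was computed as Pearson's r of log2(CPM + 1) over 30 class-by-library profiles, for the 25 genes that reached 10 CPM. Neighbours in a cluster had a median r of 0.76 (19 pairs), and genes of 1 cluster that are not neighbours 0.50 (51 pairs). Paralogues in different clusters had a median of 0.12 (24 pairs), close to 0.17 for unrelated pairs of different clusters (206 pairs). The closest pair was Hoxb7 with Hoxb8, at 0.94. The profiles share libraries, depth and free RNA, so no p is given.

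Fibroblast subtypes were gated by their own markers, and many fibroblasts, 3393, 2147 and 1619, had no clear subtype. The follicle-associated subtype (659, 709 and 749 cells), marked by Coch, Tnmd and Crabp1, had more Hox RNA than fibroblasts as a whole in each library: 857, 616 and 887 CPM. Its top genes include Fmod, a deep reticular marker. It was tested against the mean of the papillary, deep reticular, interstitial progenitor, dermal sheath and nerve-associated subtypes. Dermal papilla cells, with Hox sums of 1326 and 1098 CPM in the neonatal and 3 week libraries, were not in that mean. Preadipocytes and cells with no clear subtype were not in it either. Of 25 Hox genes tested, 9 were higher and none lower, where 8.23% of 12480 genes were called, 4.56% higher and 3.67% lower. The median log2 difference was -0.02 over the Hox genes and 0.02 over all genes. Without the library block 5 were called, without the 3 week library 2 and without the 2 month library 3.

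The 9 genes were Hoxa9, 5 HoxC genes and 3 HoxD genes, and no HoxB gene. Hoxd9 showed the highest difference, at 25.4, 30.1 and 52.2 CPM in follicle-associated cells against 12.5, 5.62 and 12.8 CPM in all fibroblasts (log2 difference 2.64, SE 0.26, edgeR adjusted p = 9.3e-05). Hoxd8 was at 66.4, 58.0 and 78.4 CPM (1.35, SE 0.12). Hoxc10 was at 54.4, 31.1 and 126 CPM (1.32, SE 0.24), and Hoxc4 at 78.6, 58.2 and 41.0 CPM (1.10, SE 0.13). Hoxa9 differed by 1.44, Hoxd4 by 1.23, Hoxc9 by 0.82, Hoxc8 by 0.81 and Hoxc6 by 0.76. The 8 HoxB genes tested had log2 values between 0.02 and -1.16.

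Dermal papilla cells, the signalling core at the base of the hair follicle, had the highest Hox sums of any gate with 30 or more cells: 1326 CPM in 418 neonatal and 1098 CPM in 30 cells at 3 weeks. No cells passed this gate at 2 months, and no test was made. Hoxc8 was at 236 and 449 CPM, Hoxc6 at 227 and 208 CPM, and Hoxc4 at 98.7 and 124 CPM. Hoxa9 and Hoxc10 differed between the libraries in the same way as in fibroblasts as a whole, at 187 and 19.2 CPM and at 109 and 17.9 CPM.

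In the other subtypes fewer genes passed the adjusted threshold. At an unadjusted p under 0.05 the edgeR counts were 12 of 25 in follicle-associated, 15 in papillary, 16 in deep reticular, 7 in nerve-associated, 4 in dermal sheath and 3 in interstitial progenitor cells. Papillary fibroblasts, of the upper dermis (682, 260 and 198 cells), had Hoxa9 and Hoxc8 higher, by 1.18 (SE 0.28) and 0.51 (SE 0.12), where 3.68% of all genes were called, 2.47% higher and 1.21% lower. With DESeq2 5 Hox genes passed, and 0 passed without any 1 of the libraries, without the block, under a stricter gate or at a 5% mitochondrial limit. Deep reticular fibroblasts, of the lower dermis (302, 232 and 52 cells), had Hoxc4 and Hoxd9 lower, by -0.71 (SE 0.18) and -1.71 (SE 0.48), where 11% of all genes were called, 8.29% higher and 2.71% lower. With DESeq2 5 genes were called there, and 0 without the block, without the 3 week library or without the 2 month library. The deep reticular gate was also led by the muscle genes Acta1 and Mylpf.

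Nerve-associated fibroblasts (68 and 122 cells at 3 weeks and 2 months) had Hoxb2 higher, by 0.73 (SE 0.19), and Hoxc6, Hoxc8 and Hoxd8 lower, by -0.77, -0.74 and -1.64, where 5.84% of all genes were called, 4.5% higher and 1.34% lower. Hoxb2 was at 52.9 and 62.5 CPM there. With 2 libraries, leaving out either leaves 1 sample, assumed to vary like the other subtypes, and 0 were then called. Without the block 1 was called. No Hox gene passed edgeR's test in interstitial progenitor fibroblasts (331, 2091 and 2120 cells), where 15.3% of all genes were called (10% higher and 5.28% lower). DESeq2 called 1, and 4 were called under a stricter gate. None passed in dermal sheath cells, tested in the neonatal and 3 week libraries (213 and 108 cells), since the 40 cells at 2 months were under the minimum, where 7.29% of all genes were called (4.26% higher and 3.03% lower). DESeq2 called 0 there. The medians over the 25 Hox genes were 0.47 in papillary, -0.24 in deep reticular, -0.16 in interstitial progenitor, -0.16 in dermal sheath and -0.15 in nerve-associated cells, against 0.03, 0.01, 0.04, -0.03 and -0.03 over all genes. Between 26.2% of nerve-associated and 60.6% of papillary cells lay near the cut.

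**Figure D5:**
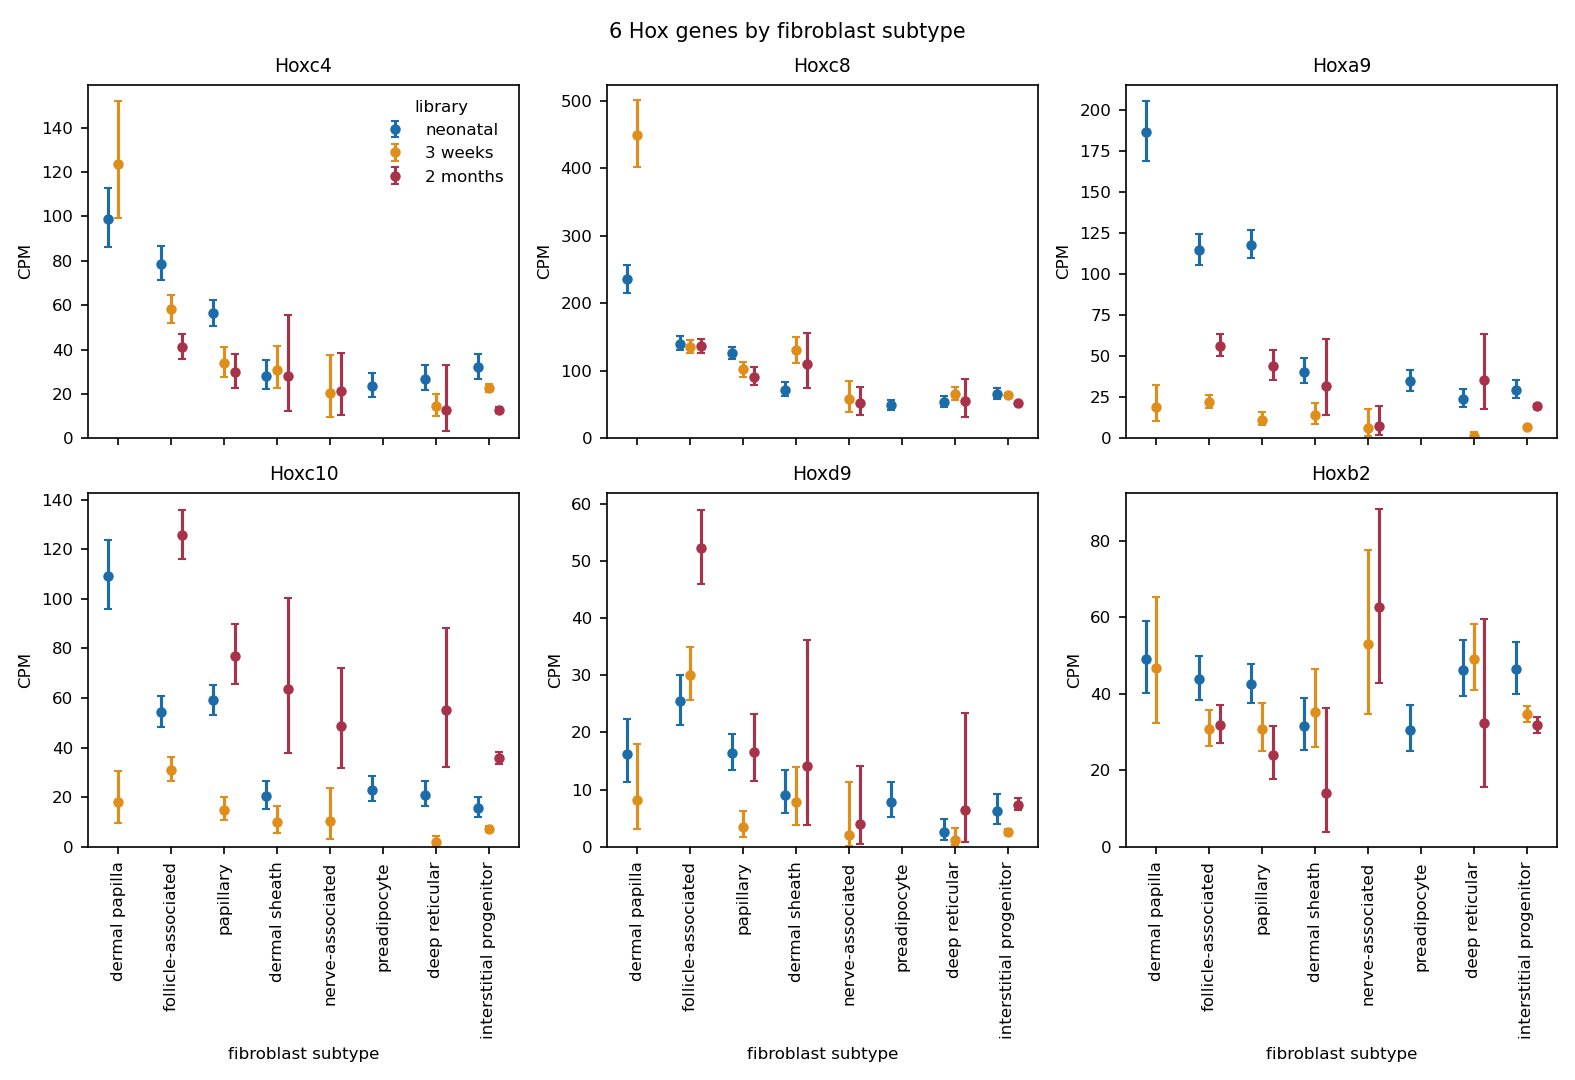
CPM of 6 Hox genes in fibroblast subtypes, 1 panel per gene and 1 colour per library, with bars for exact Poisson 95% intervals; linear axes start at 0 and differ between panels. Dermal papilla cells hold the highest Hoxc8 (236 and 449 CPM), Hoxd9 reaches 52.2 CPM in follicle-associated cells, and Hoxa9 in papillary cells drops from 118 to 11.4 CPM at 3 weeks.

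Between ages, the question was how the fibroblast pattern differs from neonatal skin to 2 months. With 1 library per age there is no test, and intervals cover counting error only. Genes at 1 CPM or more in either library counted as measured. At 3 weeks against neonatal, 11 of 25 measured Hox genes were at least 2-fold lower and 0 higher, where 25.4% of 12883 genes passed 2-fold, 14.1% lower and 11.3% higher. The median log2 ratio was -0.98 over the Hox genes and -0.18 over all genes. Scaling by TMM factors shifts all ratios up by 0.19 for this pair, and 7 Hox genes then passed. With totals without mitochondrial, ribosomal and haemoglobin genes 17 passed, and 6 at a minimum of 10 CPM. That minimum also leaves fewer Hox genes to count, since 16 reached 10 CPM in fibroblasts of any library. The shares of all genes that passed under these other settings are not given here.

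At 2 months against 3 weeks, 6 of 24 were higher and 4 lower, where 11% of all genes passed, 4.72% higher and 6.25% lower. The medians were 0.10 and -0.09. At 2 months against neonatal, 1 of 26 was higher and 11 lower, where 35% of all genes passed (13.8% higher and 21.2% lower), with medians of -0.68 and -0.29 and a TMM shift of 0.27. These 3 comparisons share libraries.

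Several genes were lower in the 3 week fibroblasts than in the libraries on either side. Hoxa10, at 11.96, 1.40 and 15.7 CPM, was lower at 3 weeks than neonatally by a log2 ratio of -3.10 (95% counting interval -3.42 to -2.80) and 11.2-fold higher at 2 months. Hoxc10 was lower by -1.98 (interval -2.09 to -1.87) and then 4.37-fold higher. Hoxc11, at 0.997, 0.154 and 4.75 CPM, was 31.0-fold higher at 2 months than at 3 weeks, on 263 against 11 UMIs. Hoxa9 was lower at 3 weeks by -2.94 and stayed lower at 2 months, by -1.52 against neonatal, or by -0.88 with every subtype given equal weight. The same order was seen toward the anterior end of HoxA, with smaller ratios: Hoxa3 stood at 2.91, 1.48 and 3.11 CPM, Hoxa5 at 7.73, 5.47 and 8.73 CPM and Hoxa7 at 16.9, 8.78 and 13.4 CPM.

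The dip at 3 weeks was also seen within subtypes. Hoxa9 was at 118, 11.4 and 43.9 CPM in papillary, 115, 22.0 and 56.6 CPM in follicle-associated and 29.7, 6.69 and 19.5 CPM in interstitial progenitor cells. Hoxc10 was at 59.1, 14.9 and 77.1 CPM, at 54.4, 31.1 and 126 CPM and at 15.6, 7.18 and 35.7 CPM in the same subtypes. Mural cells moved alike in Hoxa9, at 21.5, 5.55 and 15.0 CPM, and Hoxa10, at 6.36, 0 and 12.4 CPM. In muscle progenitors Hoxa9 was highest at 3 weeks, at 63.5, 98.3 and 55.1 CPM, and Hoxa10 lowest, at 56.6, 43.5 and 63.5 CPM. These values rest on 37, 79 and 13 UMIs of Hoxa9 and 33, 35 and 15 of Hoxa10. For both genes the counting intervals of the libraries overlapped, so neither order is resolved. Whether the dip belongs to age or to the level of the back that was sampled cannot be told apart.

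Other genes were highest in the neonatal fibroblasts and lowest at 2 months. Hoxb5 was at 3.81, 1.74 and 0.452 CPM, a log2 ratio of -3.07 at 2 months against neonatal. Hoxb8 was at 3.63, 1.55 and 0.633 CPM (-2.52), and Hoxd1 at 6.31, 1.13 and 0.470 CPM (-3.75). Hoxb3, Hoxb4 and Hoxc4 were lower by -1.54, -1.51 and -1.46. Others stayed close: Hoxc5 differed by -0.10, Hoxd9 by 0.02 and Hoxc10 by 0.15 between neonatal and 2 months.

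The summed Hox level of all fibroblasts differed by a log2 ratio of -0.88 (interval -0.90 to -0.86) at 3 weeks against neonatal. The subtype make-up differed too, with interstitial progenitor cells at 5.28% of neonatal and 36.9% of 3 week fibroblasts. Within subtypes the ratio was -1.02 in papillary, -0.43 in deep reticular, -0.45 in interstitial progenitor, -0.48 in follicle-associated, -0.27 in dermal papilla and 0.09 in dermal sheath cells. This list leaves out the fibroblasts with no clear subtype, the largest group, at 54.1% of neonatal and 37.9% of 3 week fibroblasts. The ratio was -0.05 in keratinocytes, -0.01 in mural cells, 0.17 in muscle progenitors and 0.39 in endothelial cells, but -1.61 in Schwann cells. None of these differences between classes was tested.

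At the level of single cells, Hox UMIs were common in fibroblasts. The median fibroblast held UMIs of 4, 3 and 3 Hox genes, and 97.8%, 95.3% and 94.5% of fibroblasts held at least 1 Hox UMI. After thinning each cell to 1500 UMIs these shares were 64.2%, 43.4% and 50.5%, leaving out 21, 13 and 101 shallower cells. In leukocytes the thinned shares were 4.82%, 3.26% and 3.66%, at median depths of 8918, 3348 and 2601 UMIs before thinning against 8957, 12295 and 10225 in fibroblasts, leaving out 14, 71 and 139 cells. Endothelial cells had 70.0%, 75.5% and 75%, keratinocytes 39.6%, 43.6% and 46.2%, and muscle progenitors 44.9%, 52.9% and 47.1%. Schwann cells had 23.1%, 8.85% and 6.35%, the last of which is near the leukocyte level.

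Genes that work with or beside the Hox clusters were counted from lists. Of 10 PBX and MEIS family cofactors measured, 6 were higher in fibroblasts than in keratinocytes and none lower, where 24.1% of all genes were higher and 18% lower. Among them were Meis1 by 2.71 and Meis2 by 1.90, and the median was 1.61 over the list and 0.01 over all genes. Against mural cells 4 were higher and 1 lower, where 14.4% of all genes were higher and 10.4% lower. In follicle-associated fibroblasts 3 of 10 were higher, where 4.56% of all genes were, among them Meis1 by 1.29 and Meis2 by 1.13.

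Of 12 noncoding RNAs of the Hox clusters 4 were measured. Hotairm1 and Hoxaas3, of the HoxA cluster, and Hoxb3os, of HoxB, were lower in fibroblasts than in keratinocytes, by -2.63, -2.80 and -1.52, and Hoxd3os1, of HoxD, was higher by 3.16. These signs are those of the coding genes Hoxa3, Hoxa5 and Hoxa7 and of the tested HoxD genes. Of 16 other positional transcription factors, 7 passed the filter on low counts. All 7 were higher in fibroblasts than in keratinocytes, where 24.1% of all genes were higher. Their median was 5.60 against 0.01 over all genes. A gene can pass that filter through fibroblast profiles alone, so the count is not a test of the list. En1, which marks the trunk dermis, differed by 5.86, and Tbx15 by 5.56. Against mural cells 1 of 7 was higher, where 14.4% of all genes were. Of 19 Polycomb and trithorax genes, 2 were higher and 3 lower in fibroblasts than in keratinocytes, with a median of -0.22. That comparison called 42.2% of all genes.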

How the data were processed

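Counts were the authors' deposited UMI counts per gene and barcode in 3 libraries, made with Cell Ranger 3.0.2 on mm10 (Seurat 2.0 is also named), per the submitters' processing notes. How barcodes were chosen before deposit is not given in the sources used here, and 8452, 10226 and 10190 barcodes were deposited. Barcodes with at least 300 genes, 500 UMIs and at most 10% mitochondrial UMIs were kept. Median depths were 8685, 11143 and 8530 UMIs per kept cell.

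Cells were gated by marker scores into 12 classes and fibroblasts into 8 subtypes (class score at least 0.2 and lead 0.1, subtype score 0.15 and lead 0.05). Counts were summed per class and library and tested with edgeR 4.0.16 in R 4.3.3 (TMM, quasi-likelihood, library as block, profiles of 50 or more cells, Benjamini-Hochberg over all genes, calls at 0.05). DESeq2 1.42.0 was an alternative. The script was tested on simulated data. The libraries supply the block because all classes of a library come from the same cell suspension. Ages have 1 library each, so CPM carries exact Poisson 95% intervals and shares carry exact Clopper-Pearson intervals, for counting error only. Nothing in the labels names separate animals, so p-values measure how far differences between classes or subtypes vary over these 3 libraries of different ages. All classes or subtypes of a fit share 1 estimate of that spread.

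The Hox genes and lists were chosen with earlier results of these data known. The rule for named genes gave values for Hox genes at 10 CPM in fibroblasts, the leading Hox genes of other classes and those called in a comparison. At most 4 members of each further list were named. The erythroid, adipocyte and hair shaft gates are described in part only. The comparisons with muscle progenitors and sebaceous cells, the 20 cell minimum and the omission of the 10 deepest cells were added after seeing the data. Comparisons of dermal papilla cells and preadipocytes with the other subtypes were planned and could not be fitted, because 1 library alone reached 50 cells of either. Neither entered the mean that each tested subtype was compared with.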

Additional observations from a re-analysis of the deposited data

Results flagged for a closer look

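In 6 cases a Hox gene moved in opposite directions between ages in fibroblasts and in another class, each by at least 2-fold, with 1 library per age. The difference was not tested in any of them, and each value is the log2 ratio in fibroblasts minus that in the other class. For Hoxa9 at 2 months against neonatal it was -3.266, with -1.52 in fibroblasts and 1.75 in keratinocytes. Hoxb3 at 2 months against neonatal gave -2.866, with -1.54 in fibroblasts and 1.33 in endothelial cells. Hoxb4 at 2 months against neonatal gave -2.731, with -1.51 in fibroblasts and 1.22 in leukocytes, where its level was 3.88, 4.37 and 9.06 CPM. Hoxb4 at 3 weeks against neonatal gave -2.189, with -1.03 in fibroblasts and 1.16 in endothelial cells. Hoxb8 at 2 months against 3 weeks gave -2.367, with -1.29 in fibroblasts and 1.08 in endothelial cells. Hoxc13 at 3 weeks against neonatal gave 3.023, with 1.91 in fibroblasts, on 22 against 5 UMIs, and -1.11 in keratinocytes. Keratinocyte markers summed to 33.0 CPM in neonatal fibroblasts and 376 CPM in those of 3 weeks. Without the 10 deepest keratinocytes of each library, 64 of 111 neonatal and 125 of 148 3 week Hoxc13 UMIs remained. Those 10 neonatal cells held 31.1% of the Hox UMIs of their class. Their part and that of keratinocyte RNA in these ratios was not tested.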

How the results depend on the processing

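Counts of called Hox genes stayed within 1.5 times the reported count except as follows, and the cause was not tested. Against mural cells 2 became 1 without the replicate block. In papillary cells 2 became 5 with DESeq2, 1 with no filter on low counts, and 0 without the replicate block, under the stricter gate and at the 5% mitochondrial limit. In deep reticular cells 2 became 5 with DESeq2, 4 without the 5% of barcodes with most UMIs, and 0 without the block. In interstitial progenitor cells 0 became 1 with RLE size factors, with DESeq2 and without the deepest 5%, and 4 under the stricter gate. In dermal sheath cells 0 became 1 at the 5% limit. In follicle-associated cells 9 became 5 without the block, and in nerve-associated cells 4 became 1 without the block and 2 without the deepest 5%. Past 2-fold between ages, 11 at 3 weeks against neonatal became 7 with TMM scaling, 17 with totals without mitochondrial, ribosomal and haemoglobin genes, and 6 at a 10 CPM minimum. At that minimum 10 became 4 and 12 became 5 in the other age pairs. The 10 CPM minimum leaves fewer Hox genes to count, and the shares of all genes that passed under these settings are not given here.

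The library is the replicate block of the reported fits, and without it the counts were 17 against keratinocytes, 15 Schwann, 18 leukocytes, 7 muscle progenitors, 16 endothelial cells, 13 melanocytes and 17 sebaceous cells. Leaving out each library gave 12 to 20 against keratinocytes, 0 to 4 mural, 9 to 16 Schwann, 15 to 18 leukocyte, 3 to 12 muscle progenitor, 10 to 19 endothelial, 1 to 16 melanocyte and 11 to 20 sebaceous. It gave 0 to 0 in papillary, 0 to 3 in deep reticular, 0 to 1 in interstitial progenitor, 0 to 0 in dermal sheath, 2 to 9 in follicle-associated and 0 to 3 in nerve-associated cells. Where 2 libraries entered, the sample left was assumed to vary like the other groups.

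Of results for single genes and classes under all alternatives, 1304 kept their side of the threshold or their value, 173 lost a call, 38 moved and none changed direction. With every subtype given equal weight 6 of 33 fibroblast age ratios moved: Hoxb4, Hoxd4 and Hoxd9 at 3 weeks against neonatal to -0.76, -0.76 and -0.40, Hoxb6 and Hoxb8 at 2 months against 3 weeks to -0.60 and -0.37, and Hoxa9 at 2 months against neonatal to -0.88. In small classes few cells and UMIs stand behind a value.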
